A study of Mus musculus with 9 samples.

Results

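The genes described here are 38 genes of glucose metabolism, taken by symbol from the count table of 23453 genes and followed through 9 mouse RNA-seq libraries. They were kept apart in 7 groups: glucose uptake and phosphorylation (4 genes), upper glycolysis (8), lower glycolysis (6), lactate and monocarboxylate transport (4), entry of pyruvate into mitochondria (5), the TCA cycle (7) and the pentose phosphate pathway (4). The libraries came from 3 states of epiblast-like cells, with 3 libraries each. EpiLCs were derived from naive embryonic stem cells by 48 h in N2B27 medium with 1% KSR (a serum replacement), FGF2 and Activin A. The other states followed from EpiLCs after a further 24 h. The aEpiLCs, a model of anterior epiblast, were kept in N2B27 basal medium without these factors, to which the study's methods add 1% KSR. The pEpiLCs, a model of posterior epiblast, received Activin and CHIR99021, in N2B27 medium with 1% KSR per the study's methods. CHIR99021 is an agonist of Wnt/β-catenin signalling. No library was of EpiLCs kept in their own medium for the further 24 h, and both later media lacked FGF2. For a change shared by both later states, the added time, the loss of FGF2 and the new state cannot be told apart. The labels give the source as embryo and the cell type as EpiLCs for all 9 libraries, the study describes the aEpiLCs and pEpiLCs compared by bulk RNA-seq as wild-type, and which cell line gave these libraries is not given in the sources used here. Nothing states that the replicates were separate cultures, so p-values measure only the spread between these libraries.

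Glycolysis splits glucose into pyruvate in the cytosol, and cells either reduce pyruvate to lactate and export it or carry it into mitochondria, where it is oxidised to acetyl-CoA and enters the TCA cycle. The pentose phosphate pathway branches off after the first phosphorylation and yields NADPH and ribose for nucleotides. Primed epiblast cells are known for a strongly glycolytic metabolism, and the use of glycolysis is known to be graded in the gastrulating embryo.

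Total counts were 20560564 to 23417917 per library, so 3 counts, taken as the detection limit, were 0.130 to 0.143 CPM (counts scaled to equal library totals, after TMM normalisation). All 38 genes exceeded 1 CPM in each library. Together they took 2.46% to 2.65% of all counts before normalisation in EpiLCs, 1.95% to 2.23% in aEpiLCs and 1.86% to 2.21% in pEpiLCs. The epiblast gene Pou5f1 averaged 1128, 934 and 954 CPM in EpiLCs, aEpiLCs and pEpiLCs. The 8 epiblast markers listed summed to 5212 to 5535, 4683 to 4921 and 1974 to 3375 CPM in the same order, and against EpiLCs 3 rose and 3 fell in aEpiLCs while 1 rose and 6 fell in pEpiLCs. With all 9 libraries in one fit the 3 that fell were 1. The 8 neural markers summed to 235 to 282, 538 to 621 and 172 to 266 CPM, of which Nes averaged 98.1, 311 and 183 CPM. Of the 6 neural markers tested, 4 rose in aEpiLCs, while in pEpiLCs Nes rose and the other 5 fell. The 8 primitive streak genes summed to 6.17 to 8.48 CPM outside pEpiLCs against 637 to 2725 CPM within them. Evx1, a primitive streak gene, was at 0.00 CPM in EpiLCs and aEpiLCs. Extraembryonic endoderm markers, of which 6 of 8 were in the table, summed to 4.96 to 10.2 CPM, and feeder fibroblast markers, also 6 of 8, to 16.2 to 34.0 CPM. Single feeder markers moved in opposite directions. In EpiLCs, aEpiLCs and pEpiLCs Dcn averaged 6.30, 1.69 and 0.242 CPM and Col1a2 averaged 1.58, 2.72 and 6.38 CPM. pEpiLC replicate 1 stood apart: it had the streak sum of 2725 CPM, and 323 and 333 genes differed more than 4-fold between it and replicates 2 and 3, against 66 between those. Results that this library decided are given with and without it. In bulk RNA a smaller number of expressing cells and a lower level per cell cannot be told apart.

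Between EpiLCs and aEpiLCs the transcripts of the glucose transporters among the 38 genes and of most enzymes behind them went opposite ways. Slc2a1 and Slc2a3, the genes of the transporters GLUT1 and GLUT3, rose 5.97-fold and 2.66-fold, whereas 25 of the 38 genes fell, Aldoa by the largest factor, 2.37-fold. A gene passed the test at a Benjamini-Hochberg adjusted p below 0.05 over all genes tested by edgeR's quasi-likelihood test. By this rule 28 of 38 passed, 3 higher and 25 lower, where 46.6% of the 15301 genes tested passed (24.0% higher and 22.6% lower). The median log2 fold change was -0.31 over the 38 genes and 0.00 over all genes tested. A change that passed and was also 2-fold or more was seen for 2 genes higher and 2 lower (12.5% of all genes, 7.25% higher and 5.24% lower). The libraries of the 2 states did not overlap for 3 genes higher and 27 lower (56.3% of all genes, 28.6% higher and 27.7% lower). The count of 2 genes lower by 2-fold or more became 1 without aEpiLC replicate 1, aEpiLC replicate 3 or EpiLC replicate 3.

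Between EpiLCs and pEpiLCs most glycolytic enzymes again fell, but Slc2a1 fell and Slc2a3 did not pass. The largest rise was that of Mpc1, a subunit of the mitochondrial pyruvate carrier, at 3.72-fold. Here 25 of 38 genes passed, 5 higher and 20 lower, where 44.2% of the 15288 genes tested passed (22.8% higher and 21.4% lower). The median log2 fold change was -0.23 over the 38 genes and 0.02 over all genes tested. Changes of 2-fold or more comprised 1 gene higher and 3 lower (15.8% of all genes, 7.71% higher and 8.13% lower). The libraries of the 2 states did not overlap for 6 genes higher and 25 lower (58.7% of all genes, 28.2% higher and 30.5% lower). The count of lower genes depended on the number of EpiLC libraries: it was 13, 11 and 12 without EpiLC replicate 1, 2 and 3, and without EpiLC replicate 3 the count of higher genes was 3. Without pEpiLC replicate 1 the counts were 6 higher and 20 lower.

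Compared directly, pEpiLCs and aEpiLCs differed in 6 of the 38 genes, where 15.6% of the 15198 genes tested passed (6.28% higher and 9.30% lower). Slc2a1 was lower in pEpiLCs, and Mpc1, Ldhb, Pdha1, Fh1 and Mdh2 were higher. None of the 18 genes of upper glycolysis, lower glycolysis and the pentose phosphate pathway passed in this comparison by edgeR's quasi-likelihood test, and none by DESeq2, the likelihood ratio test or voom (here always with sample quality weights, which lower the weight of libraries that stand apart). Pfkm alone among them had an unadjusted p below 0.05. Only Slc2a1 (lower) and Mpc1 (higher) differed by 2-fold or more (7.29% of all genes, 4.74% lower and 2.55% higher). The libraries did not overlap for 9 genes higher and 5 lower (38.7% of all genes, 18.3% higher and 20.4% lower). The count of 5 higher genes was 3 without pEpiLC replicate 2 or 3 or aEpiLC replicate 3, and 2 without aEpiLC replicate 1 or 2. The count of 1 lower gene was 3 without pEpiLC replicate 1 and 2 without pEpiLC replicate 2, and with all libraries kept it was 2 with the likelihood ratio test and 3 with voom or with all 9 libraries in one fit. Both comparisons with EpiLCs share the EpiLC libraries, so the values of a gene in them are given side by side.

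**Figure D1:**
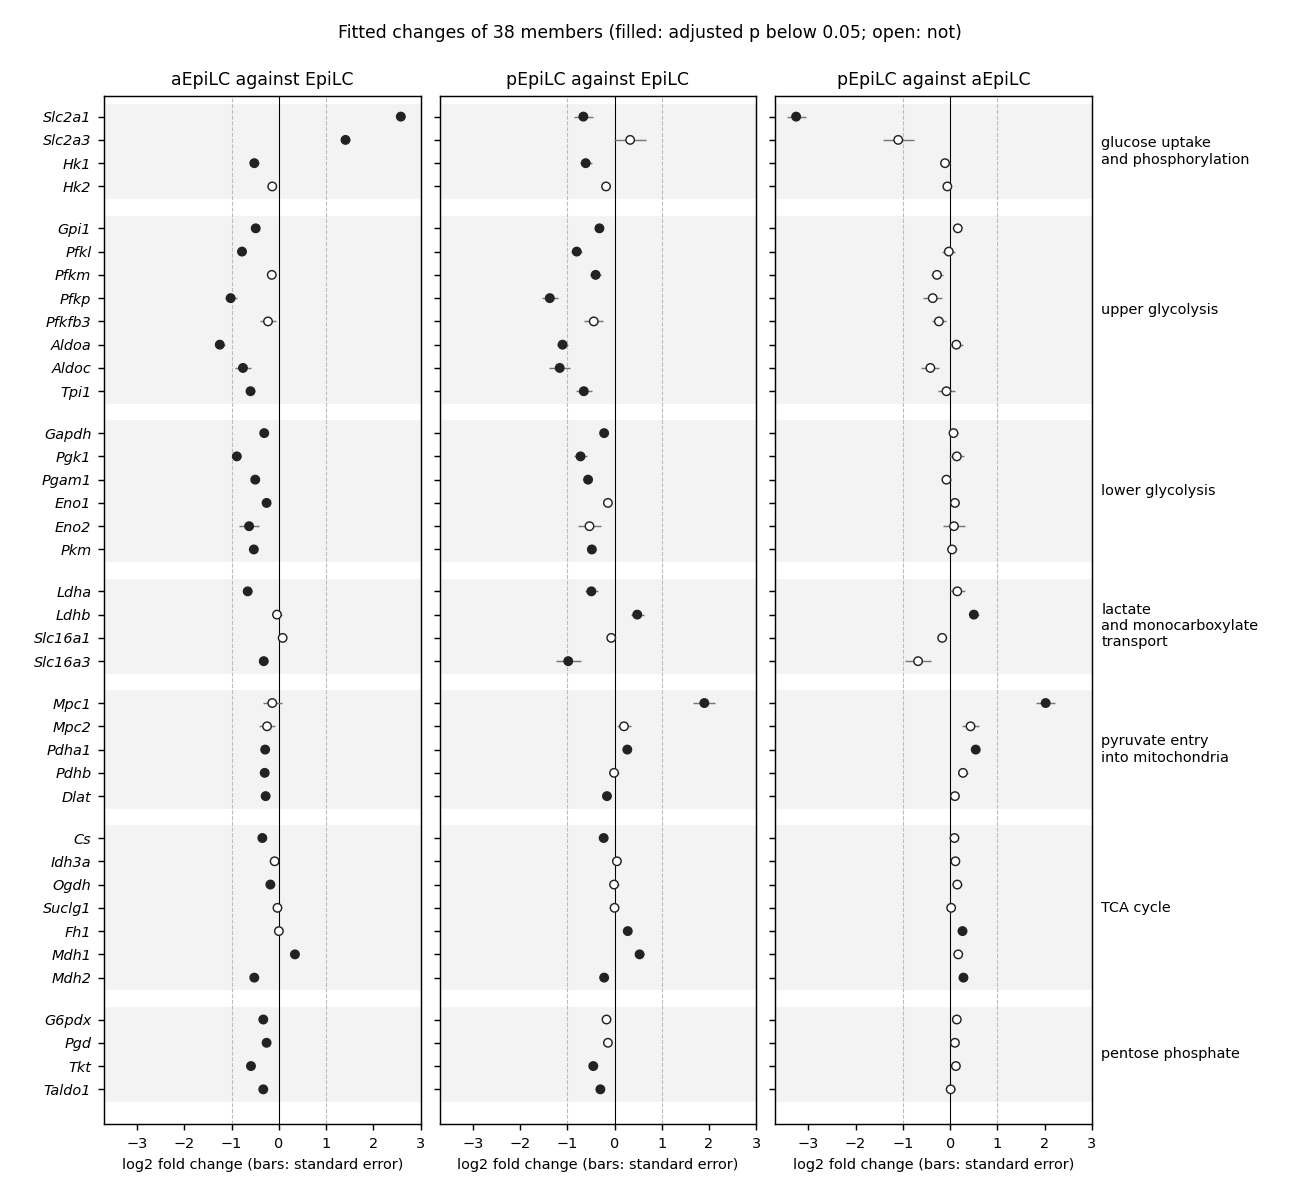
Fitted log2 fold change (x axis) of each of the 38 genes (y axis, in 7 groups) in each of the 3 comparisons. Points are edgeR estimates with bars of 1 standard error, filled where the adjusted p was below 0.05, and dashed lines mark a 2-fold change. Upper and lower glycolysis lie left of 0 against EpiLCs in both states, Slc2a1 lies at 2.58 in aEpiLCs and -0.66 in pEpiLCs, and Mpc1 lies at 1.90 in pEpiLCs.

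Because the changes of Slc2a1, Mpc1 and Pfkp were the largest from EpiLCs among genes with an entry in the RefSeq promoter table, the 250 bases before their first listed start are shown, on the strand of the gene and in GRCm38.p6. Capitals mark ACGTG, a form of the core letters that hypoxia-inducible factors recognise, on either strand. The form GCGTG was not searched.
Slc2a1, chr4:119108495-119108744, plus strand: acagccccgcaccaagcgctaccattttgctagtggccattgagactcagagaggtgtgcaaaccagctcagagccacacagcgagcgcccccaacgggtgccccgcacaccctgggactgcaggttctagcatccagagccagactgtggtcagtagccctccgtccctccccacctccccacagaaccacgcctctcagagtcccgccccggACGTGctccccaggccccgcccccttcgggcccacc
Mpc1, chr17:8283537-8283786, plus strand: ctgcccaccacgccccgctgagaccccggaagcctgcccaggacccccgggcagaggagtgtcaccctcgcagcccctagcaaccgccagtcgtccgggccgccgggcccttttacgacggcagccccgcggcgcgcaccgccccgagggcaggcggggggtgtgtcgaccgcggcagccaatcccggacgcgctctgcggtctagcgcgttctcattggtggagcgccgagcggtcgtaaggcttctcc
Pfkp, chr13:6648772-6649021, minus strand: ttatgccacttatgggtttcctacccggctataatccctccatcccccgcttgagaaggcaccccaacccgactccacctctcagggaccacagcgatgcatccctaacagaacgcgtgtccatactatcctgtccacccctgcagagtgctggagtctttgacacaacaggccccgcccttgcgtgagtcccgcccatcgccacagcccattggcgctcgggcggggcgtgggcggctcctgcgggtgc
The Slc2a1 window held ACGTG once, 36 bases before the RefSeq start, and the Mpc1 and Pfkp windows did not hold it. In GENCODE vM21 the gene models of Slc2a1 and Mpc1 begin upstream of these starts, at 119108711 and 8282904, so the Mpc1 window lies inside its gene model. Of 36 members with an entry, 12 (33.3%) held ACGTG in this window, against 21.7% of the genes tested that had an entry and 16.6% of all 32851 windows. The longer CACGTG, the E-box bound by Myc, contains ACGTG and was held by 3 members (8.33%), Slc16a1, Ldha and Pfkm, against 8.58% of the genes tested and 6.02% of all windows. These are matches of letters and were not tested as binding sites.

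Slc2a1 lies on chromosome 4 from 119108711 to 119137983 (GRCm38, gene models of GENCODE vM21) and encodes the basal glucose transporter GLUT1. It stood at 220, 216 and 283 CPM in EpiLC replicates 1 to 3, at 1439, 1389 and 1458 CPM in aEpiLCs and at 104, 191 and 152 CPM in pEpiLCs. Its 3 states did not overlap, with aEpiLCs highest and pEpiLCs lowest. It was higher in aEpiLCs than in EpiLCs by a log2 fold change of 2.58 (SE 0.0920, adjusted p = 6.92e-10) and lower in pEpiLCs than in aEpiLCs by 9.58-fold (log2 fold change -3.26, SE 0.202, adjusted p = 0.000150). The smaller difference between pEpiLCs and EpiLCs, a log2 fold change of -0.66 (SE 0.208, adjusted p = 0.0344), was not called without pEpiLC replicate 3 (adjusted p = 0.0748) or without EpiLC replicate 1, 2 or 3 (adjusted p = 0.0695, 0.0683 and 0.125), and it was -0.46 without pEpiLC replicate 1.

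Slc2a3, on chromosome 6 from 122727809 to 122801640, encodes the high-affinity transporter GLUT3. It was at 109, 132 and 148 CPM in EpiLCs, 335, 371 and 327 CPM in aEpiLCs and 77.8, 226 and 177 CPM in pEpiLCs. The aEpiLC libraries were above all others, and pEpiLC replicate 1 was the lowest of the 9. The rise in aEpiLCs had a log2 fold change of 1.41 (SE 0.0935, adjusted p = 9.46e-08). The value for pEpiLCs against EpiLCs was 0.33 (SE 0.333, adjusted p = 0.448) and passed without pEpiLC replicate 1, at 0.67 (adjusted p = 0.000118), and with voom on all libraries, at 0.58 (adjusted p = 0.021). Against aEpiLCs it was -1.10 (SE 0.324, adjusted p = 0.0582), and it passed without pEpiLC replicate 1, at -0.77 (adjusted p = 0.000215), and without pEpiLC replicate 2, at -1.43 (adjusted p = 0.0319). With all libraries kept it also passed with the likelihood ratio test (adjusted p = 0.00723), voom (0.00741) and all 9 libraries in one fit (0.0217).

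The hexokinases trap glucose as glucose 6-phosphate. Levels of different genes were compared per kilobase of all annotated exons merged, which is longer than a single transcript. Per kilobase of exon, Hk2 exceeded Hk1 by 8.59-fold, 11.2-fold and 11.6-fold in EpiLCs, aEpiLCs and pEpiLCs. Hk1 fell in both states, from 25.4 to 31.2 CPM in EpiLCs to 19.3 to 21.4 CPM in aEpiLCs (log2 fold change -0.52, adjusted p = 0.000789) and 16.6 to 20.7 CPM in pEpiLCs (-0.61, adjusted p = 0.00632). Hk2 lay between 141 and 194 CPM in the 9 libraries and did not pass in any comparison, with log2 fold changes of -0.14, -0.18 and -0.06.

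**Figure D2:**
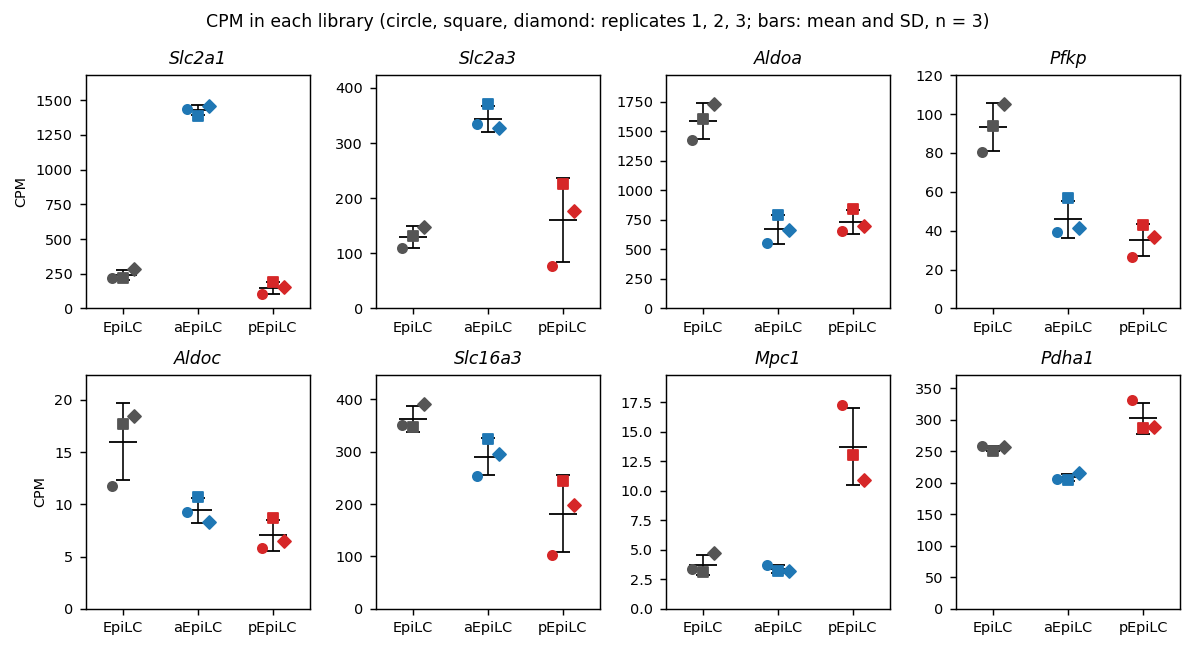
CPM (y axis, from 0) of 8 genes in each library of EpiLCs, aEpiLCs and pEpiLCs (x axis), with the mean and SD of 3 libraries per state. Slc2a1 reached 1389 to 1458 CPM in aEpiLCs, Aldoa and Pfkp were lower in both later states, and Mpc1 was at 10.9 to 17.3 CPM in pEpiLCs against 3.11 to 4.70 CPM in the other libraries.

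Upper glycolysis, from glucose 6-phosphate to triose phosphates, had the lowest medians of the 7 groups against EpiLCs. Of its 8 genes 6 fell in aEpiLCs and 7 in pEpiLCs, where 22.6% and 21.4% of all genes tested were lower. The median log2 fold changes of the 8 genes were -0.68 and -0.73. Their summed CPM was 3187 to 3731 in EpiLCs, 1680 to 2151 in aEpiLCs and 1705 to 2269 in pEpiLCs, so that the EpiLC libraries did not overlap with the others.

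Aldoa, the main aldolase, lies on chromosome 7 from 126795234 to 126800751 and was the most abundant gene of the group per kilobase. It was at 1430, 1603 and 1733 CPM in EpiLCs, 550, 790 and 666 CPM in aEpiLCs and 657, 845 and 694 CPM in pEpiLCs. Every EpiLC library was above every other library, and aEpiLCs and pEpiLCs overlapped. The log2 fold changes from EpiLCs were -1.25 (SE 0.108, adjusted p = 1.03e-06) in aEpiLCs and -1.10 (SE 0.108, adjusted p = 0.000396) in pEpiLCs.

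Aldoc, a minor aldolase, was at 11.8, 17.7 and 18.5 CPM in EpiLCs, 9.29, 10.7 and 8.28 CPM in aEpiLCs and 5.86, 8.69 and 6.53 CPM in pEpiLCs. It was also lower in both states, by log2 fold changes of -0.76 (SE 0.165, adjusted p = 0.00197) and -1.16 (SE 0.220, adjusted p = 0.00490). Its value between pEpiLCs and aEpiLCs, -0.42 (adjusted p = 0.175), was the largest of upper glycolysis in that comparison and did not pass.

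Phosphofructokinase, the main control point of the pathway, has 3 subunit genes. Pfkp, the platelet type, lies on chromosome 13 from 6579768 to 6648777. It was at 80.6, 94.0 and 105 CPM in EpiLCs, 39.2, 56.9 and 41.3 CPM in aEpiLCs and 26.5, 42.7 and 37.0 CPM in pEpiLCs. EpiLCs were above both states, and its log2 fold changes were -1.02 (SE 0.126, adjusted p = 2.35e-05) and -1.37 (SE 0.173, adjusted p = 0.000960). Its exons share 748 bases with Pitrm1 on the other strand, which averaged 199, 201 and 213 CPM, with log2 fold changes of 0.01, 0.12 and 0.09 that did not pass. Strandedness of the libraries is not given in the sources used here, so reads from these bases cannot be assigned to a strand.

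The liver type Pfkl, the most abundant of the 3 per kilobase, fell by log2 fold changes of -0.78 and -0.80 (adjusted p = 9.50e-06 and 0.00181). The muscle type Pfkm fell in pEpiLCs (-0.40, adjusted p = 0.0255), and its value in aEpiLCs was -0.15 (adjusted p = 0.110). The call for Pfkm was lost without pEpiLC replicate 3 (adjusted p = 0.0669) and without EpiLC replicate 1, 2 or 3 (adjusted p = 0.0505, 0.0985 and 0.0749). Pfkfb3, which makes and breaks down the activator fructose 2,6-bisphosphate, did not pass in any comparison, with log2 fold changes of -0.23, -0.44 and -0.24.

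Gpi1, glucose 6-phosphate isomerase, fell in both states, with log2 fold changes of -0.49 and -0.32 (adjusted p = 3.48e-05 and 0.00800). Tpi1, triose phosphate isomerase, also fell, with values of -0.60 and -0.65 (adjusted p = 8.29e-05 and 0.0165). In pEpiLCs the call for Tpi1 was lost without EpiLC replicate 2 or 3 (adjusted p = 0.0569 and 0.0627).

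Lower glycolysis, where ATP and NADH are made, holds Gapdh and Pkm, the most abundant of the 38 genes per kilobase in each state. All 6 genes fell in aEpiLCs and 4 in pEpiLCs, where 22.6% and 21.4% of all genes tested were lower. The median log2 fold changes of the 6 genes were -0.52 and -0.50. The summed CPM was 15384 to 16205 in EpiLCs, 10771 to 12998 in aEpiLCs and 11302 to 13646 in pEpiLCs.

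Pgk1, phosphoglycerate kinase, had the largest change of this group. It stood at 992, 1086 and 1124 CPM in EpiLCs, 501, 660 and 568 CPM in aEpiLCs and 506, 769 and 637 CPM in pEpiLCs. EpiLCs were above both states without overlap, by log2 fold changes of -0.89 (SE 0.0872, adjusted p = 3.04e-06) and -0.72 (SE 0.137, adjusted p = 0.00501).

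Gapdh, glyceraldehyde 3-phosphate dehydrogenase and a common reference gene for PCR, was the highest of the 38 per kilobase. It was at 6588, 6783 and 6807 CPM in EpiLCs, 4809, 5881 and 5575 CPM in aEpiLCs and 5168, 6094 and 5750 CPM in pEpiLCs. It was lower in both states without overlap, by the small log2 fold changes of -0.31 (SE 0.0707, adjusted p = 0.00291) and -0.22 (SE 0.0665, adjusted p = 0.0286). The second was not called without pEpiLC replicate 3 (adjusted p = 0.062) or EpiLC replicate 1, 2 or 3 (adjusted p = 0.0748, 0.0922 and 0.0992). In the annotation 76 other genes held stretches nearly identical to Gapdh, of which 44 were in the table, with a sum of 177 to 262 CPM, so some of its reads may have been assigned among them. Ldha, Pdhb, Pgam1, Pgk1 and Pkm also had such copies in the table, at 1 to 2 genes each, and Eno1 had 3, so their values carry the same uncertainty.

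Pgam1, phosphoglycerate mutase, had log2 fold changes of -0.50 and -0.56, and Pkm, the pyruvate kinase of proliferating cells, -0.53 and -0.48, each with an adjusted p of at most 0.00307. Eno1, the main enolase, fell in aEpiLCs (-0.26, adjusted p = 0.00485) and had a value of -0.14 in pEpiLCs (adjusted p = 0.116), which passed without pEpiLC replicate 2 (-0.20, adjusted p = 0.0375). Eno1b is 99.5% identical to Eno1 over the aligned stretch, so many reads cannot be assigned to one of them with certainty. The sum of both was 4197 to 4375 CPM in EpiLCs, 3211 to 3789 CPM in aEpiLCs and 3490 to 4120 CPM in pEpiLCs. The neuronal enolase Eno2, at 2.29 to 4.67 CPM, fell in aEpiLCs (-0.63, adjusted p = 0.0290), a call that was lost without aEpiLC replicate 2 (adjusted p = 0.0907) and EpiLC replicate 2 or 3 (adjusted p = 0.122 and 0.0943), and with all 9 libraries in one fit (0.0518).

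**Figure D3:**
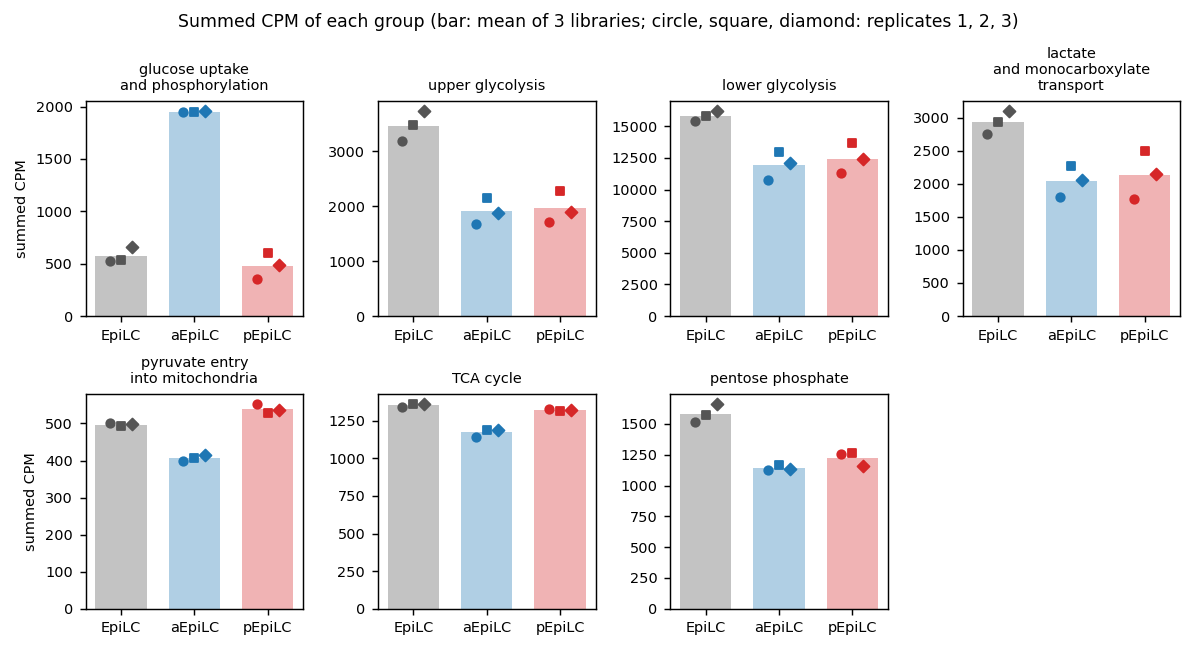
Summed CPM (y axis, from 0) of the genes of each of the 7 groups in each library (points), with the mean of 3 libraries per state (bars). The sum for glucose uptake and phosphorylation was 1948 to 1958 CPM in aEpiLCs against 352 to 655 CPM in the other libraries. Upper glycolysis, lower glycolysis, lactate, TCA cycle and pentose phosphate sums were highest in EpiLCs. The TCA cycle sum was 1342 to 1363 CPM in EpiLCs, 1143 to 1190 CPM in aEpiLCs and 1313 to 1326 CPM in pEpiLCs.

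Lactate dehydrogenase is a tetramer of subunits A and B, of which A is linked to lactate production. Ldha was at 2108, 2233 and 2366 CPM in EpiLCs, 1207, 1614 and 1411 CPM in aEpiLCs and 1237, 1885 and 1571 CPM in pEpiLCs. It was lower in both states, by log2 fold changes of -0.66 (SE 0.0884, adjusted p = 4.67e-05) and -0.49 (SE 0.137, adjusted p = 0.0221). The second was lost without pEpiLC replicate 3 (adjusted p = 0.0544) and without EpiLC replicate 1, 2 or 3 (adjusted p = 0.0522, 0.0703 and 0.0819). Ldhb went the other way in pEpiLCs. It was at 140, 195 and 186 CPM in EpiLCs, 165, 165 and 179 CPM in aEpiLCs and 275, 215 and 227 CPM in pEpiLCs, so that pEpiLCs were above both other states. Its log2 fold changes in pEpiLCs were 0.48 against EpiLCs (SE 0.142, adjusted p = 0.0273) and 0.50 against aEpiLCs (SE 0.101, adjusted p = 0.0172). The first was lost without EpiLC replicate 1 or 3 (adjusted p = 0.0642 and 0.0591), the second without aEpiLC replicate 1, 2 or 3 (adjusted p = 0.073, 0.082 and 0.0508).

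Slc16a3 encodes the lactate exporter MCT4. It was at 351, 347 and 392 CPM in EpiLCs, 253, 324 and 295 CPM in aEpiLCs and 102, 245 and 199 CPM in pEpiLCs. EpiLCs were highest and pEpiLCs lowest without overlap, and pEpiLC replicate 1 was 2.16-fold below the mean of the other pEpiLC libraries. The log2 fold changes from EpiLCs were -0.32 (SE 0.0832, adjusted p = 0.00677) in aEpiLCs and -0.98 (SE 0.269, adjusted p = 0.0215) in pEpiLCs. The first did not pass with all 9 libraries in one fit (adjusted p = 0.324). Without pEpiLC replicate 1 the latter was -0.69 and still passed, and it was lost without EpiLC replicate 1, 2 or 3 (adjusted p = 0.0602, 0.0612 and 0.0741). Between pEpiLCs and aEpiLCs it was -0.68 (adjusted p = 0.141), and it passed without pEpiLC replicate 1 at -0.39 (adjusted p = 0.0262). Slc16a1, the more widely expressed transporter MCT1, was at 149 to 176 CPM in all libraries and did not pass in any comparison (log2 fold changes 0.08, -0.07 and -0.17).

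Mpc1 and Mpc2 form the carrier that brings pyruvate into mitochondria. Mpc1 lies on chromosome 17 from 8282904 to 8297661. It was at 3.40, 3.11 and 4.70 CPM in EpiLCs, 3.75, 3.19 and 3.22 CPM in aEpiLCs and 17.3, 13.0 and 10.9 CPM in pEpiLCs. All 3 pEpiLC libraries were above the other 6, which overlapped. The log2 fold changes in pEpiLCs were 1.90 against EpiLCs (SE 0.234, adjusted p = 0.000871) and 2.02 against aEpiLCs (SE 0.205, adjusted p = 0.00104), and both passed under each alternative tried. The noncoding gene 4930506C21Rik shares 480 exon bases with Mpc1 on the other strand and was at most 0.0953 CPM in a library. Mpc2, at 3.37 to 5.96 CPM, had log2 fold changes of -0.25, 0.20 and 0.43 and did not pass in any comparison.

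Pyruvate dehydrogenase then makes acetyl-CoA. Pdha1, its E1 alpha subunit, was at 258, 250 and 256 CPM in EpiLCs, 206, 205 and 215 CPM in aEpiLCs and 331, 287 and 288 CPM in pEpiLCs. The states did not overlap, with aEpiLCs lowest and pEpiLCs highest. It was lower in aEpiLCs (log2 fold change -0.29, SE 0.0546, adjusted p = 0.000830) and higher in pEpiLCs (0.27, SE 0.0688, adjusted p = 0.0160) than in EpiLCs, and it was higher in pEpiLCs than in aEpiLCs by 0.54 (SE 0.0753, adjusted p = 0.00428). The rise from EpiLCs was lost without EpiLC replicate 2 or 3 (adjusted p = 0.0639 and 0.0569). Pdha1 shares 603 exon bases with Map3k15 on the other strand, whose levels of 27.2, 19.6 and 46.3 CPM moved the same way (log2 fold changes -0.47, 0.79 and 1.24), and the part of this overlap in the result was not tested.

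The E1 beta subunit Pdhb was at 134, 129 and 131 CPM in EpiLCs, 99.4, 108 and 111 CPM in aEpiLCs and 107, 133 and 144 CPM in pEpiLCs. It fell in aEpiLCs (-0.30, SE 0.0617, adjusted p = 0.00125), and pEpiLCs spanned the range from aEpiLCs to above EpiLCs. Its value between pEpiLCs and aEpiLCs was 0.27 (adjusted p = 0.138) and passed without pEpiLC replicate 1 (0.39, adjusted p = 0.00275) and with voom (0.35, adjusted p = 0.00884). Dlat, the E2 subunit, fell in aEpiLCs (-0.28, adjusted p = 0.00191) and in pEpiLCs (-0.16, adjusted p = 0.0447), where the call was lost without pEpiLC replicate 2 or 3 (adjusted p = 0.0969 and 0.134), without EpiLC replicate 1, 2 or 3 (adjusted p = 0.0729, 0.144 and 0.108), and with DESeq2 (0.0569), the likelihood ratio test (0.134) or no filter (0.0874). The 5 genes of pyruvate entry had a median log2 fold change of -0.28 in aEpiLCs and 0.20 in pEpiLCs against EpiLCs. Their sum was 398 to 416 CPM in aEpiLCs, 492 to 500 CPM in EpiLCs and 529 to 553 CPM in pEpiLCs, in that order without overlap.

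Genes of the TCA cycle changed in both directions. In aEpiLCs 1 rose and 3 fell and in pEpiLCs 2 rose and 2 fell, so that 57.1% of the 7 passed in each, where 46.6% and 44.2% of all genes did. Absolute log2 fold changes reached 0.53. The median was -0.09 in aEpiLCs and 0.00 in pEpiLCs.

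Malate dehydrogenase closes the cycle, with a mitochondrial enzyme from Mdh2 and a cytosolic enzyme from Mdh1. Mdh2 was at 392, 405 and 412 CPM in EpiLCs, 270, 280 and 294 CPM in aEpiLCs and 348, 338 and 337 CPM in pEpiLCs. The 3 states did not overlap, and its log2 fold changes were -0.52 (SE 0.0568, adjusted p = 8.57e-06) in aEpiLCs, -0.22 (SE 0.0488, adjusted p = 0.00983) in pEpiLCs, and 0.28 (SE 0.0592, adjusted p = 0.0201) for pEpiLCs against aEpiLCs. The last was lost without pEpiLC replicate 2 or 3 (adjusted p = 0.0527 and 0.0606) and without aEpiLC replicate 1 or 2 (adjusted p = 0.0767 and 0.0883). Mdh1 went the other way. It was at 139, 131 and 131 CPM in EpiLCs, 161, 173 and 173 CPM in aEpiLCs and 165, 197 and 206 CPM in pEpiLCs, and it rose in both states (0.34, SE 0.0595, adjusted p = 0.000428, and 0.53, SE 0.0857, adjusted p = 0.00269). Between pEpiLCs and aEpiLCs Mdh1 was at 0.17 (adjusted p = 0.254), and it passed without pEpiLC replicate 1 (0.26, adjusted p = 0.0168) and with voom on all libraries (0.23, adjusted p = 0.0297).

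Fh1, fumarase, was at 111 to 114 CPM in EpiLCs and 110 to 116 CPM in aEpiLCs, which overlapped, and at 132 to 138 CPM in pEpiLCs. It rose in pEpiLCs, by a log2 fold change of 0.28 (adjusted p = 0.00367) against EpiLCs and 0.26 (adjusted p = 0.0241) against aEpiLCs. The second was lost when any of the 5 libraries pEpiLC replicate 2 or 3 or aEpiLC replicate 1, 2 or 3 was left out, with adjusted p between 0.0706 and 0.0861. Cs, citrate synthase, which starts the cycle, fell in both states (-0.35, adjusted p = 0.000234, and -0.23, adjusted p = 0.0126, the latter 0.0525 without EpiLC replicate 2). Ogdh, the E1 subunit of the 2-oxoglutarate dehydrogenase complex, fell in aEpiLCs (-0.18, adjusted p = 0.0297), a call that was lost without aEpiLC replicate 2 or 3 (adjusted p = 0.0827 and 0.0739) or EpiLC replicate 1 or 3 (adjusted p = 0.0558 and 0.133) and with all 9 libraries in one fit (0.139). Idh3a and Suclg1, subunits of isocitrate dehydrogenase and succinate-CoA ligase, did not pass in any comparison, with log2 fold changes between -0.09 and 0.11.

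The 4 pentose phosphate genes fell together in aEpiLCs, where 22.6% of all genes tested were lower. In pEpiLCs 2 of them fell, where 21.4% of all genes were lower. The share that passed there, 50.0%, was near the 44.2% of all genes. Tkt, transketolase of the non-oxidative branch, was the most abundant. It was at 913, 965 and 1006 CPM in EpiLCs, 641, 652 and 620 CPM in aEpiLCs and 742, 699 and 634 CPM in pEpiLCs. EpiLCs were above both states, by log2 fold changes of -0.59 (SE 0.0574, adjusted p = 2.77e-06) and -0.45 (SE 0.0715, adjusted p = 0.00240). Taldo1, the transaldolase of the same branch, fell in both states (log2 fold changes -0.33 and -0.30, adjusted p = 0.000791 and 0.0188), and the second was lost without EpiLC replicate 1, 2 or 3 (adjusted p = 0.0507, 0.0697 and 0.0658).

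G6pdx, the first and rate-limiting enzyme of the oxidative branch, was at 138, 142 and 153 CPM in EpiLCs, 114, 118 and 114 CPM in aEpiLCs and 121, 134 and 124 CPM in pEpiLCs. It fell in aEpiLCs (-0.33, SE 0.0607, adjusted p = 0.000685), and pEpiLCs lay between the other states, at -0.17 against EpiLCs (adjusted p = 0.0671), which passed with all 9 libraries in one fit (-0.19, adjusted p = 0.0258). It shares 418 exon bases with Ikbkg on the other strand. Pgd, the next dehydrogenase, had log2 fold changes of -0.26 (adjusted p = 0.00655) and -0.14 (adjusted p = 0.159). The sum of the group was 1513 to 1663 CPM in EpiLCs, 1129 to 1163 CPM in aEpiLCs and 1160 to 1263 CPM in pEpiLCs.

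Genes that encode alternative forms of 1 step were also compared as the log2 ratio of their counts within each library, as a description with no test. Slc2a1/Slc2a3 had a ratio of 0.72 to 1.01 in EpiLCs, 1.91 to 2.16 in aEpiLCs and -0.24 to 0.42 in pEpiLCs, without overlap. Ldha/Ldhb was 3.51 to 3.91 in EpiLCs, above 2.87 to 3.29 in aEpiLCs and 2.17 to 3.13 in pEpiLCs, so that the B form took a larger part in both later states. Pfkl/Pfkp rose in order from 2.27 to 2.45 in EpiLCs, through 2.47 to 2.74 in aEpiLCs, to 2.77 to 3.15 in pEpiLCs. Pfkl/Pfkm and Hk1/Hk2 were lower in both later states than in EpiLCs. Slc16a1/Slc16a3 was higher in both, with 0.58 in pEpiLC replicate 1 against -0.72 and -0.42 in the other pEpiLC libraries. Aldoa/Aldoc was lower in aEpiLCs than in either other state, and Eno1/Eno2 overlapped in all comparisons. Per kilobase, Slc16a3 was the more abundant of the 2 lactate transporters in 8 libraries and Slc16a1 in pEpiLC replicate 1, while in the other pairs the more abundant partner was the same in each of the 9 libraries.

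**Figure D4:**
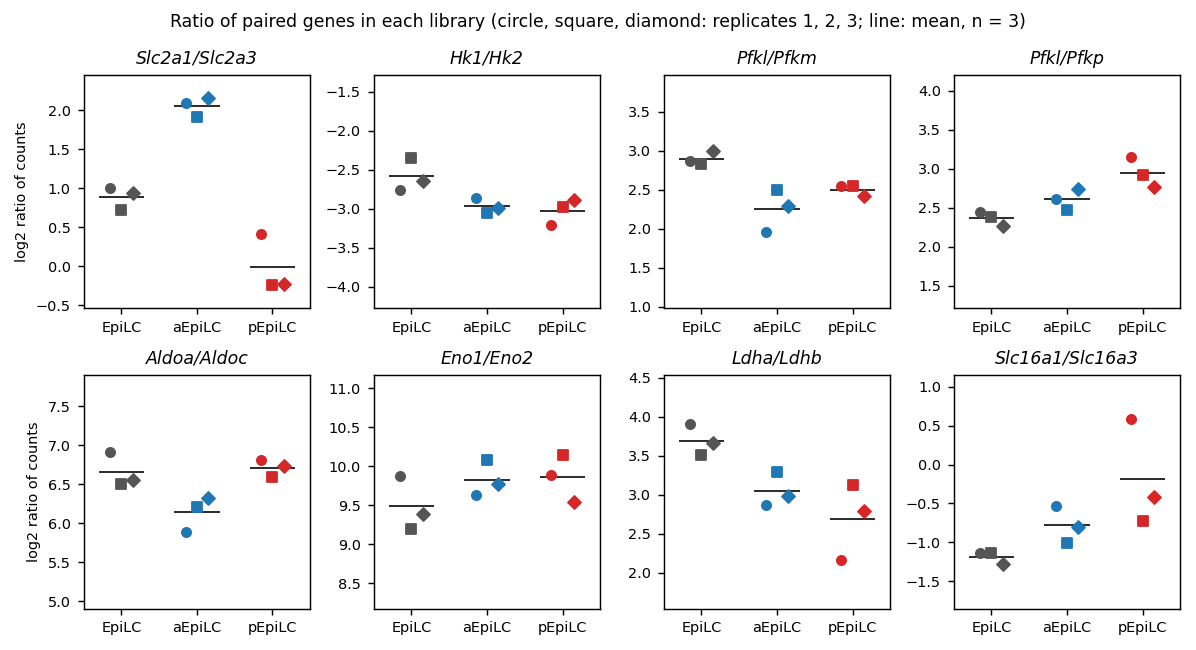
Log2 ratio of the counts of 8 pairs of genes for the same step (y axis, each panel spanning 3 units) in each library of the 3 states (x axis), with the mean of 3 libraries as a line. The Slc2a1/Slc2a3 ratio is highest in aEpiLCs (mean 2.06) and lowest in pEpiLCs (mean -0.01), and the Ldha/Ldhb ratio is highest in EpiLCs (mean 3.70).

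Another 63 genes of the same pathways were listed as a comparison, and 52, 52 and 51 of them were tested in aEpiLCs against EpiLCs, pEpiLCs against EpiLCs and pEpiLCs against aEpiLCs. Of these, 16 were higher and 10 lower in aEpiLCs, 14 higher and 10 lower in pEpiLCs, and their median log2 fold changes were 0.01 and 0.08. The shares that passed, 50.0% and 46.2%, were near those of all genes, 46.6% and 44.2%. With all 9 libraries in one fit the 10 lower in aEpiLCs were 5. In pEpiLCs the 14 higher were 8 and 9 without EpiLC replicate 1 and 3, and the 10 lower were 6 without EpiLC replicate 2 or 3. Between pEpiLCs and aEpiLCs 3 were higher and 2 lower, so that 9.80% passed where 15.6% of all genes did. Under the alternatives tried these counts were 0 to 6 higher and 0 to 6 lower. Of the other TCA cycle genes 14 were tested, of which 7 rose in each state by edgeR's quasi-likelihood test. Among all genes tested, 24.0% in aEpiLCs and 22.8% in pEpiLCs were higher. The 7 in pEpiLCs were 4 without EpiLC replicate 1, EpiLC replicate 3 or pEpiLC replicate 2. Those that rose included Sdhd, a subunit of succinate dehydrogenase (0.22 and 0.53), and Idh3b, a subunit of isocitrate dehydrogenase (0.18 and 0.35), whose call in aEpiLCs was lost without aEpiLC replicate 2 (adjusted p = 0.0565) or EpiLC replicate 2 or 3 (0.0708 and 0.0921).

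Genes of gluconeogenesis, which bypass the irreversible steps of glycolysis, moved in both directions. Fbp1, fructose bisphosphatase, was at 2.24, 1.74 and 1.80 CPM in EpiLCs, 9.06, 6.84 and 7.63 CPM in aEpiLCs and 1.81, 5.43 and 5.06 CPM in pEpiLCs. It rose 4.06-fold in aEpiLCs (log2 fold change 2.02, SE 0.186, adjusted p = 1.67e-06), while its value in pEpiLCs was 1.11 (adjusted p = 0.0544) and passed without pEpiLC replicate 1 (1.47, adjusted p = 3.46e-05) and with all 9 libraries in one fit (1.09, adjusted p = 0.0263). The muscle form Fbp2, at 0.330 to 1.52 CPM, rose in both states (1.27 and 1.22, adjusted p = 0.0147 and 0.0427). In pEpiLCs DESeq2 called Fbp1 and not Fbp2, and the likelihood ratio test and voom called both. Fbp2 was not called in aEpiLCs without aEpiLC replicate 1 (adjusted p = 0.0772) or EpiLC replicate 2 (0.0685), nor in pEpiLCs without pEpiLC replicate 3 (0.148), without EpiLC replicate 1, 2 or 3 (0.0841, 0.138 and 0.104) or with no filter (0.0601). With the replicate number as a block, the count of gluconeogenesis genes higher in pEpiLCs was 1 in place of 2. Pcx, pyruvate carboxylase, which refills the TCA cycle, rose from a mean of 22.7 CPM to 41.8 and 40.0 CPM (0.88 and 0.84, adjusted p = 5.08e-06 and 0.00409). Pck2, the mitochondrial phosphoenolpyruvate carboxykinase, was at 190, 191 and 175 CPM in EpiLCs, 88.5, 123 and 116 CPM in aEpiLCs and 40.7, 109 and 95.1 CPM in pEpiLCs. It fell in both states (log2 fold changes -0.76 and -1.15, adjusted p = 3.30e-05 and 0.0188), and without pEpiLC replicate 1, the lowest library, the second was -0.83 (adjusted p = 1.98e-07). The first did not pass with all 9 libraries in one fit (adjusted p = 0.0534), and the second did not without EpiLC replicate 1, 2 or 3 (0.0607, 0.0636 and 0.0528).

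Other listed genes with a passed change of 2-fold or more were of low level, at or under 4 CPM in every library. Pgam2 (the muscle phosphoglycerate mutase), Ldhd (a D-lactate dehydrogenase), Pdha2 (the testis form of Pdha1) and Tktl1 (a transketolase-like gene) were lower in aEpiLCs (log2 fold changes -1.11, -1.34, -2.43 and -1.84) and in pEpiLCs, where the values of Pgam2 and Tktl1 were -1.18 and -2.56. In pEpiLCs Ldhd was at 0.0477, 0.0435 and 0.230 CPM and Pdha2 at 0.0477, 0.304 and 0.552 CPM, in part below the limit of 3 counts, so no fold change is given for them. Calls in aEpiLCs were lost for Pgam2 without EpiLC replicate 2 (adjusted p = 0.0622, and 0.0538 in pEpiLCs) and for Ldhd without aEpiLC replicate 2 or 3, without EpiLC replicate 1 or 2, or with all 9 libraries in one fit (adjusted p between 0.0564 and 0.0788). Pklr, the liver and red cell pyruvate kinase, was lower in pEpiLCs (-1.52, adjusted p = 0.00437). Rbks, ribokinase, was higher in aEpiLCs (1.28, adjusted p = 0.0107, and 0.0624 without aEpiLC replicate 3). Pdk4, a kinase that turns off pyruvate dehydrogenase, was at 2.16, 2.11 and 1.61 CPM in aEpiLCs and 0.524, 0.348 and 0.735 CPM in pEpiLCs, a log2 fold change of -1.86 between them (SE 0.341, adjusted p = 0.0124), which was not called without aEpiLC replicate 1 or 2 (adjusted p = 0.0525 and 0.0623). Pdk1, another of these kinases, fell in aEpiLCs (-0.66, adjusted p = 2.88e-05) and had a value of -0.64 in pEpiLCs (adjusted p = 0.0617). In pEpiLCs it was called by DESeq2 (adjusted p = 0.00837), the likelihood ratio test (0.0267), voom (0.0179) and the fit of all 9 libraries (0.0245), and without pEpiLC replicate 1 (-0.39, adjusted p = 0.00531) or 2 (-0.91, adjusted p = 0.0162). Pgk2 and G6pc were not analysed here.

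Many glycolytic genes are known targets of hypoxia-inducible factors and of Myc, so other targets and the Myc genes are given beside the results. Of 12 targets of hypoxia-inducible factors outside glycolysis, 7 fell and 0 rose in aEpiLCs by edgeR's quasi-likelihood test (0 also at an unadjusted p below 0.05 and by DESeq2, the likelihood ratio test and voom), and 5 fell and 2 rose in pEpiLCs (median log2 fold changes -0.44 and -0.46). By edgeR's test 58.3% of the 12 passed in each state, where 46.6% and 44.2% of all genes passed and 22.6% and 21.4% were lower. Without EpiLC replicate 3, 1 rose in aEpiLCs (Adm, adjusted p = 0.0191) and 3 fell in pEpiLCs, and the 2 that rose in pEpiLCs were 1 without EpiLC replicate 1 or 2 or pEpiLC replicate 2. Bnip3, a mitophagy receptor, had log2 fold changes of -0.96 and -1.79, and Vegfa, an angiogenic growth factor, -0.78 and -1.37, all of which passed. Without pEpiLC replicate 1 the pEpiLC values were -1.49 and -1.09 and passed, and Vegfa in aEpiLCs did not pass with all 9 libraries in one fit (adjusted p = 0.0566). Ndrg1 rose in pEpiLCs (2.54, adjusted p = 0.000823). Myc fell in aEpiLCs (-1.10, adjusted p = 1.23e-06). In pEpiLCs its value was -0.41 (adjusted p = 0.0995), which passed with DESeq2 (adjusted p = 0.0491), with voom (-0.62, adjusted p = 0.000506) and without pEpiLC replicate 1 (-0.66, adjusted p = 1.11e-05). Mycn rose in aEpiLCs (0.24, adjusted p = 0.0308), a call that was lost without aEpiLC replicate 2 or 3, without EpiLC replicate 2 or 3, or with all 9 libraries in one fit (adjusted p between 0.0692 and 0.388). In pEpiLCs Mycn fell (-1.08, adjusted p = 0.00694) and Mycl rose (1.24, adjusted p = 0.00181), with values of -0.83 and 1.01 without pEpiLC replicate 1 that passed. The part of these factors in the changes of the 38 genes was not tested.

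The 6 genes Hk2, Idh3a, Mpc2, Pfkfb3, Slc16a1 and Suclg1 passed in 0 of the 3 comparisons by edgeR's quasi-likelihood test. At an unadjusted p below 0.05 their count was 0 in both comparisons with EpiLCs and 2 (Slc16a1 and Mpc2) between pEpiLCs and aEpiLCs, where voom and the fit of all 9 libraries called 1, Slc16a1 (adjusted p = 0.0477 and 0.0445), and DESeq2 and the likelihood ratio test 0.

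The members also varied together among replicates of a state. EpiLC replicate 1 was the lowest EpiLC library for 25 of the 38 genes, aEpiLC replicate 1 the lowest of its state for 20 and pEpiLC replicate 1 for 25, that is 65.8%, 52.6% and 65.8%, where 34.2%, 36.2% and 44.5% of the 12131 genes above 1 CPM were lowest in these libraries. The members furthest below the mean of replicates 2 and 3 in pEpiLC replicate 1 were Slc2a3 (2.59-fold), Slc16a3 (2.16-fold) and Slc2a1 (1.65-fold), and Mpc1 and Ldhb were above it. This library also had the highest sum of streak genes, 2725 CPM against 656 and 637 CPM, and the part of that difference in these levels was not tested.

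**Figure D5:**
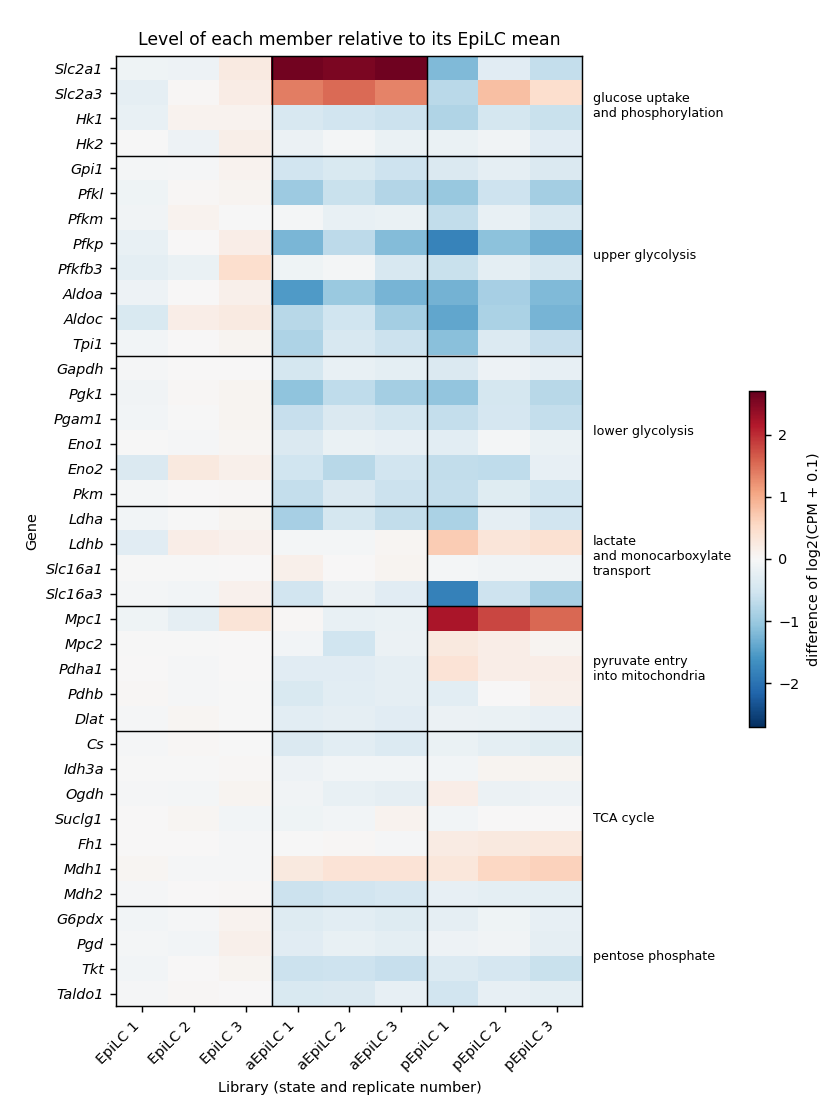
Difference of log2(CPM + 0.1) from the mean of the 3 EpiLC libraries (colour) for the 38 genes (rows, in 7 groups) in each of the 9 libraries (columns). Most rows of glycolysis are blue in aEpiLCs and pEpiLCs, Slc2a1 and Slc2a3 are red in aEpiLCs, Mpc1 is red in pEpiLCs, and pEpiLC replicate 1 is the lowest pEpiLC library for 25 of the 38 genes.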

How the data were processed

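The authors extracted total RNA, sequenced it as paired-end reads of 150 bp, aligned them with STAR 2.7.9a to mouse build GRCm38 and quantified genes by RSEM 1.3.1 (per the submitters' processing notes). The deposited values are expected counts per gene symbol for 23453 symbols, without normalisation. Gene annotation, strandedness and read cleaning are not given in the sources used here. Expected counts were rounded to whole numbers. The 38 members and all lists were chosen with earlier results of these data known.

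The software was R 4.3.3 with DESeq2 1.42.0, edgeR 4.0.16 and limma 3.58.1. A comparison used only its own 6 libraries, with TMM normalisation, filterByExpr, glmQLFit and glmQLFTest, over all genes. All 38 members passed the filter in each comparison. Passing meant an adjusted p (Benjamini-Hochberg) below 0.05, and 2-fold or more meant passing with a log2 fold change of 1 or larger in size. The standard error is the size of the log2 fold change over the square root of F. CPM were TMM-normalised over 9 libraries of 20560564 to 23417917 counts, and the limit of 3 counts covers counting error only. Positions came from GENCODE vM21, in which 22803 symbols (97.2%) matched 1 gene, and promoter sequences from RefSeq (GRCm38.p6), where 36 members had an entry. Genes were called near-identical at 95% identity over 300 bases. The text names all 38 members, with a value per library for those that changed 2-fold or more, the largest change and the most abundant gene of each group, and other pathway genes that changed 2-fold or more, while Pcx, Pdk1, Sdhd, Idh3b and the regulators' genes were named after their values were seen. Fits were tested on simulated data. Alternatives changed 1 choice at a time, except that voom came together with sample quality weights: DESeq2, voom, the likelihood ratio test, RLE size factors, at least 10 counts in every library, no filter, a single fit of all 9 libraries, the replicate number as a block, and each library left out.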

Additional observations from a re-analysis of the deposited data

Results flagged for a closer look

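Groups of 3 libraries were too small for a test of single outlying libraries. Slc2a1 and Pdha1 stood out because their changes from EpiLCs passed in opposite directions in the 2 later states and the difference between these states passed too, by edgeR's quasi-likelihood test. Slc2a1 had log2 fold changes of 2.58 in aEpiLCs and -0.66 in pEpiLCs, and -3.26 between pEpiLCs and aEpiLCs. Pdha1 had -0.29 in aEpiLCs, 0.27 in pEpiLCs and 0.54 between them. The difference between the later states passed for both genes under every alternative tried, whereas each gene's change from EpiLCs to pEpiLCs lost its call without some of the libraries.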

How the results depend on the processing

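Each change was refitted under 14 alternatives. In aEpiLCs against EpiLCs 25 of the 28 members that passed did so under all of them, in pEpiLCs against EpiLCs 14 of 25 and in pEpiLCs against aEpiLCs 3 of 6, and 0 members that passed reversed. Of members that did not pass, 0, 3 and 5 passed under some alternative. Where a setting is not named below, the counts over the 38 members stayed within 1.5 times; the cause of each change was not tested.

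The 3 members higher in aEpiLCs than in EpiLCs were 3 when any library was left out, and the 25 lower were 23 to 25. The 2 members lower by 2-fold or more were 1 with voom and 1 to 2 when a library was left out. In pEpiLCs against EpiLCs the 5 higher members were 3 to 6 and the 20 lower 11 to 20 when a library was left out. Between pEpiLCs and aEpiLCs the 5 higher members were 2 to 7 when a library was left out. There the 1 lower member became 2 with the likelihood ratio test, 3 with voom, 3 with all 9 libraries in one fit and 1 to 3 when a library was left out, and the 1 lower by 2-fold or more became 2 with the likelihood ratio test, 2 with all 9 libraries and 1 to 2 when a library was left out.

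With the replicate number as a block, 3 members were lower in pEpiLCs than in aEpiLCs and 2 of them by 2-fold or more. Whether the numbers pair the libraries was not settled by the deviations of libraries from the mean of their state. Same-numbered libraries correlated at 0.02, -0.06 and -0.06 (aEpiLC with EpiLC), 0.03, 0.03 and 0.02 (pEpiLC with EpiLC) and 0.17, 0.12 and 0.06 (pEpiLC with aEpiLC). In that last pair every library correlated best with its own number, as a hint from the data. With the block, Ogdh in aEpiLCs (adjusted p = 0.0518) and Ldhb and Dlat in pEpiLCs (0.0593 and 0.101) did not pass against EpiLCs, and Slc2a3 (-1.22, adjusted p = 0.0316) and Slc16a3 (-0.76, adjusted p = 0.0344) passed between pEpiLCs and aEpiLCs. Then 24 members were lower in aEpiLCs and 19 in pEpiLCs than in EpiLCs.

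Members that changed sign had not passed. With voom, Pdhb was at 0.07 in pEpiLCs against EpiLCs, and Pfkl at 0.03 and Tpi1 at 0.06 in pEpiLCs against aEpiLCs. Leaving out a library gave values of -0.36 to 0.03 for Pfkfb3, -0.17 to 0.05 for Ldhb, -0.26 to 0.06 for Mpc1 and -0.10 to 0.02 for Suclg1 in aEpiLCs against EpiLCs, of -0.10 to 0.10 for Pdhb and -0.12 to 0.05 for Ogdh in pEpiLCs against EpiLCs, and of -0.18 to 0.07 for Pfkl, -0.25 to 0.11 for Tpi1, -0.02 to 0.13 for Gapdh, -0.01 to 0.29 for Pgk1, -0.09 to 0.17 for Eno2, -0.05 to 0.11 for Pkm, -0.03 to 0.08 for Suclg1 and -0.05 to 0.10 for Taldo1 in pEpiLCs against aEpiLCs.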
